A study of Mus musculus with 8 samples.

Results

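The cell cycle and DNA replication genes examined here are 47 genes listed by symbol, 33 that act in mitosis and 14 that act in S phase, out of 53278 gene symbols counted in mouse forebrain. All 47 were present in the count table and all 47 had enough counts to be tested. The list was drawn up by name, with the difference between treated and control mice already known, so the values below describe these genes and their adjusted p-values lend the list no support. RNA of the whole forebrain was sequenced from 8 C57BL/6J mice, all male and 10 to 20 weeks old. For 9 days the food of the 4 depleted mice held PLX3397, an inhibitor of the kinase CSF1R on which microglia depend. The 4 control mice ate control food, and no group carried a transgene in the labels.

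A dividing cell copies its DNA in S phase and separates the copies in mitosis. The replicative helicase of the MCM proteins unwinds DNA, cyclin-dependent kinases drive the cell from one phase to the next, and the spindle and the anaphase-promoting complex pull the chromosomes apart. Most neurons of the adult forebrain do not divide. Division there is best known from stem and progenitor cells beside the ventricles and in the hippocampus, from oligodendrocyte precursors and from microglia. In bulk tissue a change in the number of such cells and a change in RNA per cell cannot be told apart.

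Total counts ranged from 48455538 to 68406688 per library, and levels are given in CPM, each library's counts scaled to a common total. Microglial markers checked the groups, since 14 of 14 fell and their summed level was 292 to 352 CPM in control and 16.8 to 24.1 CPM in depleted mice. Striatal markers marked the forebrain in every library, but their summed level varied from 342 to 1685 CPM in control and from 839 to 3292 CPM in depleted mice. The hypothalamic transcript Hcrt had 1249 to 2081 counts in 4 libraries (control mice 2 and 3, depleted mice 2 and 3) and 4 to 12 in the others. These levels differed between mice of the same group. The striatal level also differed between the groups, since depleted mice 1, 3 and 4 lay above every control mouse. Fits with the striatal level or the presence of Hcrt reads as a term are given beside the member results. A fit with the striatal level cannot fully separate it from diet.

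After depletion, 3 mitotic genes with very low levels in control forebrain rose past the threshold of an adjusted p under 0.05. Top2a, the topoisomerase that untangles DNA before chromosomes separate, was at 0.603, 0.412, 0.845 and 0.814 CPM in control mice 1 to 4 and at 3.52, 1.71, 2.41 and 1.77 CPM in depleted mice 1 to 4. Depleted mouse 1 was the highest, and every depleted mouse lay above every control mouse. Top2a rose from 0.668 ± 0.202 to 2.35 ± 0.840 CPM (SD, n = 4 mice per group), or by 1.81 on the log2 scale (SE 0.30). Its adjusted p was 0.0164 by the quasi-likelihood test of edgeR over 20140 genes, which is the test behind all adjusted p-values below unless another is named.

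Ube2c encodes the ubiquitin-conjugating enzyme of the anaphase-promoting complex. It stood at 0.256, 0.227, 0.184 and 0.166 CPM in control mice 1 to 4 and at 0.925, 0.529, 0.606 and 0.555 CPM in depleted mice 1 to 4. The rise was 1.64 on the log2 scale (SE 0.28), with an adjusted p of 0.0177 in edgeR. Bub1, a kinase of the spindle checkpoint, was close to the detection limit in control mice, at 0.0548, 0.124, 0.0735 and 0.0370 CPM, which is 15 counts over the 4 libraries. Depleted mice 1 to 4 had 0.399, 0.244, 0.476 and 0.247 CPM, or 79 counts together. Bub1 rose by 2.25 on the log2 scale (SE 0.42), with an adjusted p of 0.0328 in edgeR, and in both genes every depleted mouse lay above every control mouse.

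These 3 genes were among only 11 that rose in the whole table, so that 6.38% of the members and 0.0546% of all genes tested were called higher. No member was called lower, beside 1.11% of all genes, a share at which 0 of 47 is near the background. The contrast was known when the members were listed, and the 2 percentages are given side by side as a description. The calls rested on small margins, since 0 members passed without depleted mouse 3, where Top2a and Ube2c both had an adjusted p of 0.0531 and Bub1 had 0.130, and 0 passed with the striatal level as a covariate. With that covariate the log2 fold changes were 1.63 for Top2a (adjusted p = 0.334), 1.55 for Ube2c (adjusted p = 0.299) and 1.59 for Bub1 (adjusted p = 0.637). The striatal level differed between the diets, so that fit cannot fully separate it from diet. With the presence of Hcrt reads as a term all 3 passed.

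**Figure D1:**
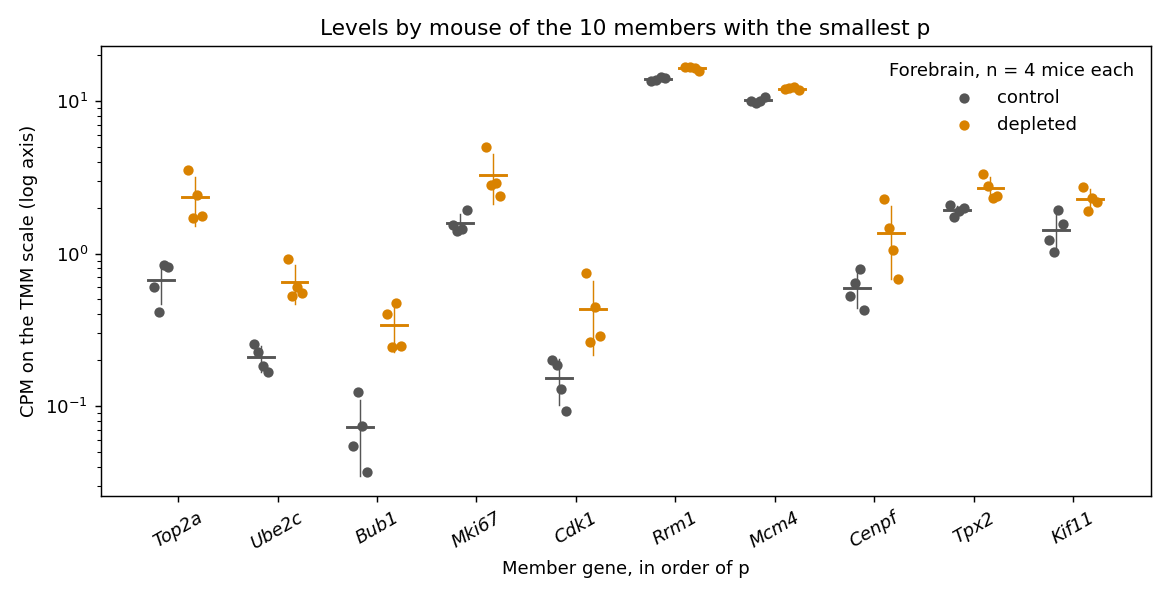
CPM (log axis) in each mouse for the 10 members with the smallest p, control in grey and depleted in orange, with points for mice, a horizontal line for the mean and a vertical line for ± 1 SD (n = 4). In Top2a, Ube2c, Bub1, Mki67 and Cdk1 all depleted mice lie above all control mice, and in Cenpf and Kif11 the groups overlap.

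In mm10, Top2a spans 98992943 to 99024189 on chromosome 11, Ube2c spans 164769898 to 164778822 and Bub1 127801122 to 127831865, both on chromosome 2. Ube2c shares 592 exon bases (22.8% of its exon length) with Tnnc2 on the opposite strand. Tnnc2 had 9 counts over the control and 3 over the depleted libraries, against 44 and 146 for Ube2c. Exon bases overlap a second annotated gene in 14 of the 47 members, and in 11 of these the other gene lies on the opposite strand alone. These include Gins2 (67.3% shared with Gse1), Kif20a (29.3% with Cdc23), Kif4 (15.1% with Pdzd11), Ncapg (13.4% with Lcorl) and Ccna2 (12.5% with Exosc9). The strand setting of the counts was not given, so reads of these neighbours may be included. Ccnb1, Ccnb2, Kif4, Tyms and Pcna also have annotated pseudogenes with which reads may be shared, so their counts are uncertain.

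The start sites of these genes are shown because cell cycle genes are known for a small set of promoter elements. The CHR element is bound by the MuvB complexes that switch mitotic genes on late in the cycle and off in resting cells, the CCAAT box is bound by NF-Y, and E2F elements are typical of genes used in S phase. Stretches from 160 bases before to 20 bases from the start follow for the 3 genes that rose, for Cdk1, for Ccnb2 as a mitotic member that did not pass, and for Mcm5 from S phase. They are RefSeq sequences of GRCm38.p6, the assembly called mm10, read 5′ to 3′ along the gene (Top2a at chr11:99024170-99024349, minus strand, Ube2c at chr2:164769769-164769948, plus strand, Bub1 at chr2:127831840-127832019, minus strand, Cdk1 at chr10:69352893-69353072, minus strand, Ccnb2 at chr9:70421535-70421714, minus strand, and Mcm5 at chr8:75109349-75109528, plus strand). Capitals mark a match on either strand to a CHR element, to the CCAAT box, or to an E2F element (TTTCCCGC, TTTGCCGC, TTTCGCGC or TTTGGCGC), so that a box on the other strand reads as its reverse complement. A CHR element was the letters TTTGAA. The form TTCGAA counted as well. Motifs may overlap, as the E2F elements of Mcm5 do.
Top2a: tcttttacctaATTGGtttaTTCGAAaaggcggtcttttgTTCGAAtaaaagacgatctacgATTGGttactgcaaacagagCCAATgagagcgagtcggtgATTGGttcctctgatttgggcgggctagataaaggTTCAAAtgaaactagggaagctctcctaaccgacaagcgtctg
Ube2c: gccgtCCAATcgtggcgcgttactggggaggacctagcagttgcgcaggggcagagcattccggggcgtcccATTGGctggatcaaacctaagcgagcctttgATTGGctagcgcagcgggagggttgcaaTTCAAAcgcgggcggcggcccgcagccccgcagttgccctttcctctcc
Bub1: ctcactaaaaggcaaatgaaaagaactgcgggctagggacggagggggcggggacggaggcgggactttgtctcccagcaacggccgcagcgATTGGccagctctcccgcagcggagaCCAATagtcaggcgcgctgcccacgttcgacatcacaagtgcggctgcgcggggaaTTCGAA
Cdk1: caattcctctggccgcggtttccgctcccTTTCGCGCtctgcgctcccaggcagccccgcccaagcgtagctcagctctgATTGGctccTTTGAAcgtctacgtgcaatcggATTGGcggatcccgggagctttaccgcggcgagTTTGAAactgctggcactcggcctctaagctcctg
Ccnb2: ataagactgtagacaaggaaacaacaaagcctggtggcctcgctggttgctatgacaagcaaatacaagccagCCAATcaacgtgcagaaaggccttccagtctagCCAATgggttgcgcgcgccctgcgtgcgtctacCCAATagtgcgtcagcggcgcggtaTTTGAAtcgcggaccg
Mcm5: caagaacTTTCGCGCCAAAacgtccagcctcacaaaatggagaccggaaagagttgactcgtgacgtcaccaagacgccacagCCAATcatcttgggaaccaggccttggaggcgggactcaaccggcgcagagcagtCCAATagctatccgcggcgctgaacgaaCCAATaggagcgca

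Ube2c held a CHR element 29 bases before its start and Top2a held 1 at 23 bases before, with further copies upstream. That of Bub1 lay 14 bases after its start. Ccnb2 held 1 at 4 bases after its start and another 167 bases before it, outside the stretch shown. Windows of 300 bases (250 before to 50 after each start) were found for 40 of the 47 members, 44 windows in all. Ccna2, Aurkb, Tpx2, Kif20a, Smc4, Mcm4 and Gins2 were not matched. A CHR element lay in 26 of 30 mitotic windows (86.7%), in 2 of 14 S-phase windows (14.3%) and in 19.2% of all 32851 promoter windows. E2F elements were split the other way, in 3 of 30 mitotic windows (10%) and 7 of 14 S-phase windows (50%), against 2.26% of all windows. The CCAAT box was frequent in both, at 90% and 78.6%, against 37.4% of all windows. Member windows had a mean GC content of 59.4% (mitotic) and 59.3% (S phase), above the 53.8% of all windows. Plk1 and Ccnb2, with log2 fold changes of 0.01 and -0.10, held the CHR element, and the window of Ccnb1, with 1.16, did not. A match is a match of letters and not a measured binding site.

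Cyclins and mitotic kinases differed widely among themselves. Cdk1, the kinase that starts mitosis, stood at 0.201, 0.185, 0.129 and 0.0925 CPM in control mice 1 to 4 and at 0.744, 0.264, 0.447 and 0.288 CPM in depleted mice 1 to 4. The groups did not overlap, but its log2 fold change of 1.52 (SE 0.41) had an adjusted p of 0.207. Aurkb, the kinase of the chromosomal passenger complex, had a log2 fold change of 1.31 (SE 0.44) at an adjusted p of 0.327, and Ccnb1, a cyclin partner of Cdk1, had 1.16 (SE 0.43, adjusted p = 0.374). In Ccnb1 depleted mouse 2, at 0.203 CPM, lay within the control range of 0.165 to 0.351 CPM.

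Other members of the same family showed nothing of that size. Plk1, the polo-like kinase, had levels of 2.61 to 3.42 CPM in control and 2.62 to 3.88 CPM in depleted mice and a log2 fold change of 0.01 (SE 0.16), whose sign changed in 4 of 17 alternative fits. Ccnb2 ranged from 1.26 to 1.61 CPM in control and from 1.05 to 1.604 CPM in depleted mice, and Ccna2 from 3.66 to 3.98 and from 3.03 to 4.61 CPM. Aurka and the checkpoint kinase gene Bub1b also overlapped between groups. Of the 9 genes in this group 8 had a positive fold change, 4 of them above 1 on the log2 scale, and 1 passed.

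Levels per length are given as CPM per kilobase of merged exons (RPKM). Bub1 had 0.0166, Cdk1 0.0308 and Ccnb1 0.0610 RPKM in control mice, whereas Plk1 had 1.39, Ccna2 0.931 and Ccnb2 0.902 RPKM. Over all 47 members the highest control level per length, that of Pcna (12.2 RPKM), was 738 times the lowest, that of Bub1.

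Among partners of the anaphase-promoting complex and passenger proteins, Ube2c stood apart from the other 4 genes. Cdca3, which helps degrade an inhibitor of mitotic entry, had a log2 fold change of 0.70 (SE 0.25) at an adjusted p of 0.362. The passenger gene Cdca8 was at 1.16 to 1.36 CPM in control and 1.49 to 1.604 CPM in depleted mice, with no overlap, a log2 fold change of 0.29 (SE 0.14) and an adjusted p of 0.488. Cdc20, the activator of the complex, stood at 1.13, 1.19, 0.790 and 1.15 CPM in control and 1.47, 0.773, 1.04 and 1.54 CPM in depleted mice. The groups overlapped, with depleted mice 1 and 4 above every control mouse and depleted mouse 2 below (log2 fold change 0.18, SE 0.25). Birc5, which encodes survivin, ranged from 0.877 to 1.51 CPM in control and from 0.967 to 1.63 CPM in depleted mice.

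Spindle and centromere genes had 7 of 8 positive fold changes and none that passed. Cenpf, a large kinetochore protein, was at 0.530, 0.638, 0.790 and 0.425 CPM in control and at 2.27, 1.46, 1.05 and 0.679 CPM in depleted mice. Depleted mouse 1 was far above and depleted mouse 4 within the control range, and the log2 fold change was 1.19 (SE 0.36, adjusted p = 0.273). Tpx2, which activates Aurora A on the spindle, ranged from 1.75 to 2.08 CPM in control and from 2.31 to 3.34 CPM in depleted mice without overlap, with 0.49 as its log2 fold change (SE 0.16) at an adjusted p of 0.297. The motor gene Kif11 had 0.67 on the log2 scale (SE 0.22) at an adjusted p of 0.310, and the motor gene Kif20a 0.28 (SE 0.13, adjusted p = 0.480) with no overlap between groups. Nusap1, the group's most abundant member per length, had 0.20 (SE 0.15), and Hmmr lay between 0.390 and 1.11 CPM in depleted mice, on both sides of the control range of 0.585 to 0.832 CPM.

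All 5 cytokinesis genes had small positive fold changes, from 0.15 to 0.65 on the log2 scale, and none passed. Anln, the actin-binding protein anillin, is also abundant in myelinating oligodendrocytes, and at 36.4 ± 4.33 CPM in control mice it was the most abundant member in CPM. It was at 39.8, 35.4, 39.8 and 30.7 CPM in control and 36.4, 41.7, 51.3 and 40.01 CPM in depleted mice (log2 fold change 0.22, SE 0.12, adjusted p = 0.543). Prc1, which bundles the midzone of the spindle, Kif23 and Racgap1 of the centralspindlin complex and the exchange factor gene Ect2 overlapped between groups as well.

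Among the 6 chromosome structure genes, Top2a rose and 5 did not pass. Mki67, the gene of the proliferation marker Ki-67, was at 1.53, 1.40, 1.45 and 1.94 CPM in control mice 1 to 4 and at 5.04, 2.83, 2.90 and 2.41 CPM in depleted mice 1 to 4. Every depleted mouse lay above every control mouse, but its log2 fold change of 1.06 (SE 0.24) had an adjusted p of 0.10 and missed the threshold. DESeq2 called it (adjusted p = 0.00210), and so did edgeR with no filter on low counts (adjusted p = 0.0470). The condensin subunit genes Ncapd2 (0.12, SE 0.06), Smc4 (0.22, SE 0.10), Smc2 and Ncapg did not pass, and Smc2 lay at 10.7 to 12.4 CPM in control and 9.21 to 12.3 CPM in depleted mice.

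**Figure D2:**
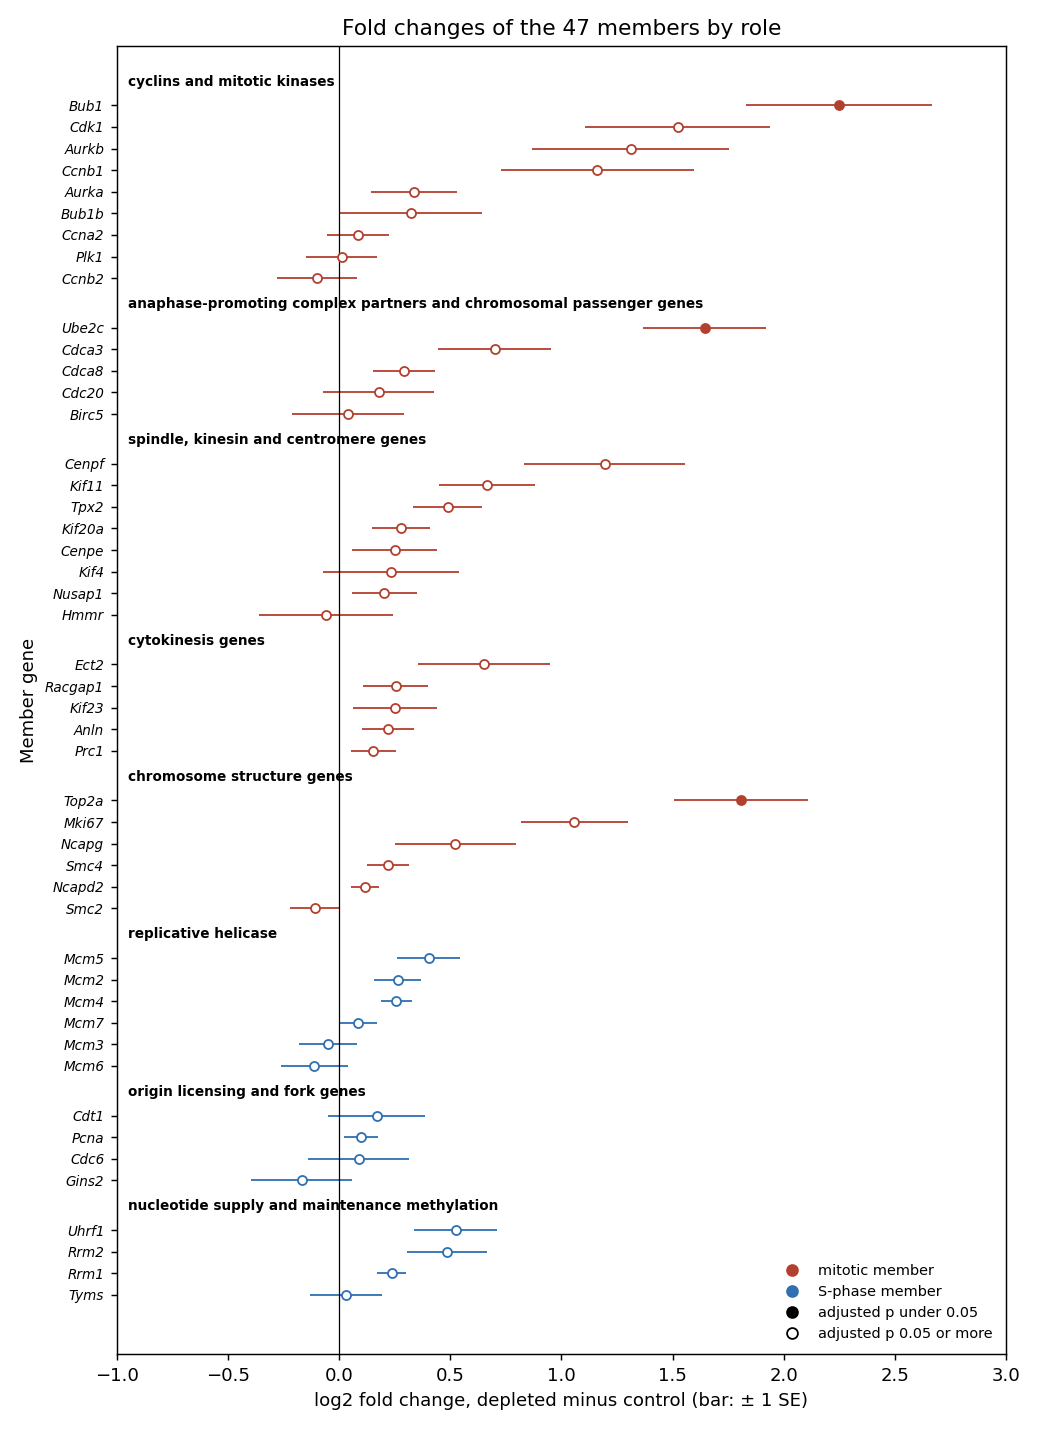
Log2 fold change (depleted minus control, with ± 1 SE) of each of the 47 members, grouped by role, mitotic members in red and S-phase members in blue, filled where the adjusted p is under 0.05. Only Bub1, Ube2c and Top2a are filled, and no S-phase member exceeds 0.52.

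No S-phase member passed. The 14 genes had log2 fold changes from -0.17 to 0.52, 11 of them positive, and 0 passed in edgeR, DESeq2 or limma-voom. At an unadjusted p under 0.05 in edgeR 6 were higher and 0 lower, beside 5.38% and 5.60% of all genes. Ribonucleotide reductase supplies the building blocks of DNA. Its large subunit gene Rrm1 was at 13.5, 13.8, 14.5 and 14.3 CPM in control and 16.9, 16.7, 16.5 and 15.9 CPM in depleted mice, a narrow separation of 0.24 on the log2 scale (SE 0.07) at an adjusted p of 0.219. Its small subunit gene Rrm2, which is the one tied to S phase, had 0.49 on the log2 scale (SE 0.18) at an adjusted p of 0.370. Uhrf1, which restores DNA methylation on new strands, ranged from 0.865 to 1.37 CPM in control and from 1.45 to 1.59 CPM in depleted mice (0.52, SE 0.19, adjusted p = 0.354). Tyms, the thymidylate synthase gene, overlapped between groups, at 1.66 to 2.30 against 1.69 to 2.40 CPM.

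The 6 helicase genes had values on both sides of 0. Mcm4 was at 10.0, 9.74, 10.1 and 10.7 CPM in control and 12.025, 12.2, 12.5 and 11.8 CPM in depleted mice, without overlap, or 0.26 on the log2 scale (SE 0.07) at an adjusted p of 0.219. Mcm5 had 0.40 (SE 0.14, adjusted p = 0.352) and Mcm2 0.26 (SE 0.11, adjusted p = 0.412), both with overlap between groups. Mcm7 had 0.08 (SE 0.08), while Mcm3 and Mcm6 had small negative values, and Mcm6 was highest of all mice in depleted mouse 2 at 10.0 CPM. The 6 proteins form 1 ring. Per kilobase of merged exons their levels in control mice differed 6.38-fold, from 0.533 RPKM for Mcm2 to 3.40 RPKM for Mcm7. In CPM the lowest was Mcm3 at 2.24 and the highest Mcm7 at 15.0, so the order depended on the exon length used.

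Licensing and fork genes had a median of 0.09. Pcna, the sliding clamp that also serves DNA repair in resting cells, was at 30.1, 29.1, 27.1 and 31.2 CPM in control and 32.0, 33.7, 27.8 and 32.1 CPM in depleted mice (0.10, SE 0.08). The licensing genes Cdt1 and Cdc6 overlapped between groups, at 1.11 to 2.34 against 1.70 to 1.85 CPM and at 0.548 to 0.832 against 0.592 to 0.905 CPM. Gins2, a helicase cofactor, was at 0.659 to 1.19 CPM in control and 0.802 to 1.10 CPM in depleted mice, and 67.3% of its exon bases are shared with Gse1 on the opposite strand.

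Over the list, 41 of 47 members (87.2%) had a positive log2 fold change, beside 49.9% of all genes tested, and the median was 0.25 beside -0.000379 over all genes. In 11 members (23.4%) all depleted mice lay above all control mice, beside 2.28% of all genes, and in 0 members below, beside 3.50%. A log2 fold change above 1 was found in 8 members (17%), all mitotic, beside 0.929% of all genes. Of the 14 members under 1 CPM in control mice 12 were mitotic and 2 S-phase, so class and level were not separated here. At an unadjusted p under 0.05, 18 members (38.3%) were higher and 0 lower, beside 5.38% of all genes that were higher and 5.60% that were lower at that level. The median was 0.28 for the 33 mitotic and 0.13 for the 14 S-phase members, a difference of 0.14 (mitotic minus S phase). These counts include the contrast that was known when the list was made, and no test of the list was run.

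The mean log2 CPM of the mitotic members was 0.65, 0.60, 0.64 and 0.59 in control mice 1 to 4 and 1.43, 0.96, 1.07 and 0.99 in depleted mice 1 to 4. For the S-phase members it was 1.96, 1.74, 1.90 and 1.85 in control and 2.04, 2.08, 1.98 and 2.02 in depleted mice. Both levels were higher in every depleted than in every control mouse, by 0.49 for the mitotic and 0.17 for the S-phase members. The S-phase minus mitotic difference was 1.31, 1.13, 1.25 and 1.26 in control and 0.61, 1.12, 0.90 and 1.03 in depleted mice. Depleted mouse 2 lay close to control mouse 2 in that difference, and depleted mouse 1 stood lowest.

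**Figure D3:**
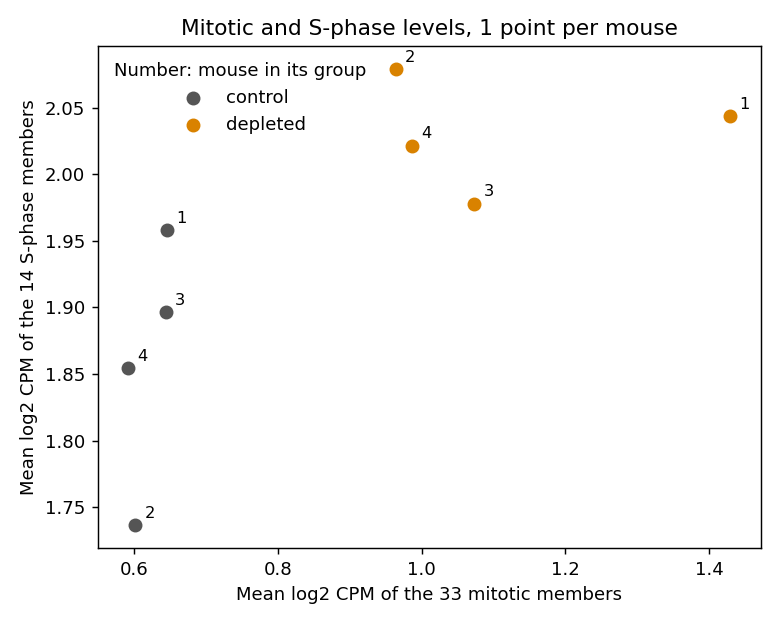
Mean log2 CPM of the 33 mitotic members (x axis) against that of the 14 S-phase members (y axis), 1 point per mouse, numbered within its group. The control mice lie between 0.59 and 0.65 on the x axis, the depleted mice between 0.96 and 1.43.

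Depleted mouse 1 held the highest of all 8 values in 22 of the 47 members (46.8%), 20 of them mitotic, beside 13.7% of all genes tested. Depleted mouse 2 did so in 4 members, beside 9.61% of all genes. Depleted mice 3 and 4 did so in 8 members each, beside 12.8% and 11.2%. Without depleted mouse 1 the median of the mitotic members was 0.27, and 2 members passed (Top2a and Ube2c). The control mice were close together, since the 27 mitotic members under 5 CPM summed to 36.1 to 37.0 CPM in all 4 of them. The same sum was 59.7, 43.8, 45.4 and 45.3 CPM in depleted mice 1 to 4.

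The scarcer members had the larger fold changes. The 14 members under 1 CPM in control mice had a median log2 fold change of 0.93, the 22 members from 1 to 5 CPM had 0.26 and the 11 members above 5 CPM had 0.15. In the same order 12, 15 and 6 of these members were mitotic and 2, 7 and 5 S-phase. All tested genes in the same level ranges had medians of 0.01, -0.01 and -0.000697. In CPM the order was the opposite, with median differences of 0.279, 0.399 and 1.99 CPM. In the mitotic class, 3 genes (Anln, Ncapd2 and Smc2) held 55.3% of the summed CPM in control mice, so that the sum over all 33 members, at 139 ± 4.17 and 163 ± 8.40 CPM, changed less than the scarce genes did. Fold changes of scarce genes carry larger errors, with a median SE of 0.30 under 1 CPM and 0.095 above 5 CPM.

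**Figure D4:**
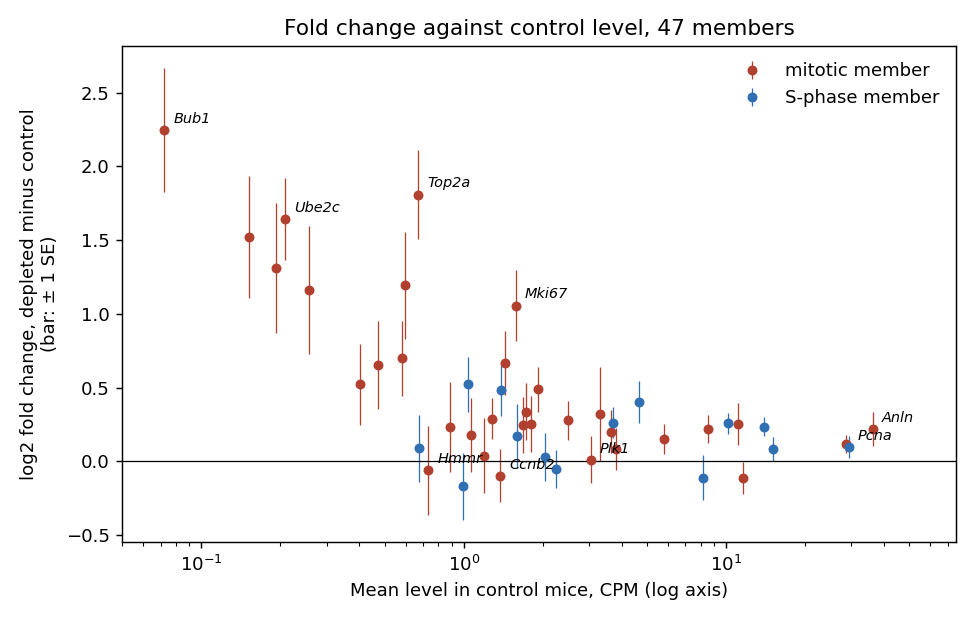
Log2 fold change (± 1 SE) against mean control CPM (log axis) for the 47 members, mitotic in red and S phase in blue. Members under 1 CPM have a median of 0.93 and those above 5 CPM a median of 0.15, and Hmmr is a scarce member near 0.

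Further mitotic genes outside the members were taken from a second list. It too was drawn up with earlier results of these data known, so its counts are a description. Of 38 listed, 34 had enough counts, and 28 of these had a positive log2 fold change (median 0.41), beside 49.9% of all genes. In 9 of them every depleted mouse lay above all control mice, beside 2.28% of all genes. In edgeR 0 passed, and DESeq2 called 3. At an unadjusted p under 0.05 in edgeR 16 were higher and 0 lower, beside 5.38% and 5.60% of all genes. Knl1, a kinetochore scaffold, was at 0.110, 0.062, 0.165 and 0.074 CPM in control and 0.671, 0.386, 0.303 and 0.267 CPM in depleted mice (log2 fold change 1.95, SE 0.42, adjusted p = 0.0797). Dlgap5, a spindle protein, had 1.40 (SE 0.33, adjusted p = 0.122).

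Replication genes outside the members had a median of 0.06 over 33 genes, with 19 positive and 0 past the threshold in edgeR or DESeq2. Their mean log2 CPM was 2.02 to 2.09 in control and 2.13 to 2.20 in depleted mice. At an unadjusted p under 0.05 in edgeR 3 were higher and 1 lower, beside 5.38% and 5.60% of all genes. Pole, a replicative polymerase subunit, had 0.45 on the log2 scale (SE 0.15) at an adjusted p of 0.333, and Clspn, a checkpoint mediator, had 1.59 (SE 0.48, adjusted p = 0.259), which was 0.35 with the striatal level as a covariate. Further lists of cell cycle regulators and of p53 targets had medians near 0. The 8 G1 cyclins and kinases had -0.10 (3 positive) and the 8 tested inhibitors and pocket proteins 0.05 (5 positive). The 13 transcription factors had 0.05 (10 positive) and the 9 p53 targets 0.03 (5 positive), beside 49.9% of all genes positive. In each list 0 genes passed the threshold in edgeR. The mean log2 CPM of the transcription factors was 2.09 to 2.19 in control and 2.30 to 2.54 in depleted mice. In the G1, inhibitor and p53 lists it overlapped between groups. At an unadjusted p under 0.05 there was 1 lower gene in the first list, 2 and 3 higher genes in the next 2 and 0 in the last. The shares of all genes at that level are those given above for the replication genes.

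Among the genes of those lists, cyclin D1 (Ccnd1) stood at -0.41 (SE 0.18, adjusted p = 0.430) and Cdk2 at -0.20 (SE 0.12, adjusted p = 0.613). The inhibitor genes Cdkn1b and Cdkn2c had 0.19 (SE 0.07, adjusted p = 0.362) and 0.48 (SE 0.20, adjusted p = 0.415). E2f8, a repressor that is itself expressed in S phase, was at 0.219, 0.453, 0.459 and 0.240 CPM in control and 1.22, 0.997, 0.765 and 0.617 CPM in depleted mice. The groups did not overlap, and its log2 fold change of 1.39 (SE 0.32) had an adjusted p of 0.113 in edgeR and 0.00830 in DESeq2. Mybl1 (0.29, SE 0.12), Bax (-0.18, SE 0.09) and Btg2 (-0.51, SE 0.30) did not pass.

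Markers of cell types known to divide in the forebrain, and of newly forming oligodendrocytes, differed in direction. Microglial markers fell, as given above. Oligodendrocyte precursor markers were called lower in 3 of 10 genes, beside 1.11% of all genes. Of these, Pdgfra was at 42.9 ± 4.04 and 21.7 ± 3.87 CPM and Cspg4 at 24.5 ± 1.37 and 13.5 ± 1.17 CPM. The summed level of the 10 markers was 320 to 418 CPM in control and 340 to 396 CPM in depleted mice. Other markers of that list differed from Pdgfra and Cspg4. Gpr17, named after its values were seen, was at 50.6 ± 6.54 and 76.5 ± 17.5 CPM with no overlap (log2 fold change 0.60, adjusted p = 0.177), and Olig1 and Olig2 were both at -0.02. Markers of newly forming oligodendrocytes were called higher in 3 of 6 genes, beside 0.0546% of all genes. Of the 6, 5 had a positive and 1 a negative log2 fold change. Their summed level was 151 to 321 CPM in control and 273 to 342 CPM in depleted mice.

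Neuroblast markers passed in 0 of 12 genes in edgeR. At an unadjusted p under 0.05 in edgeR 5 were higher and 0 lower, beside 5.38% and 5.60% of all genes. Dcx was at 0.11 (SE 0.14) and Sox11 at -0.01 (SE 0.12). The 5 higher markers, named after their values were seen, were Igfbpl1 at 1.49 (adjusted p = 0.198), Dlx5 at 0.86, Sp9 at 0.80, Dlx2 at 0.62 and Dlx6os1 at 0.58, each with overlap between groups. In each of the 5, depleted mouse 2, which had the lowest striatal level of its group, was the lowest depleted mouse. It stood at 1.42 CPM for Igfbpl1 and 6.33 CPM for Dlx5. The part of the striatal level in these 5 values was not tested. The list's summed level was 791 to 926 CPM in control and 840 to 902 CPM in depleted mice, and most of it came from Tubb3 and Stmn1, with 359 and 287 CPM in control mice. Stem and transit amplifying progenitor markers passed in 0 of 12 (114 to 134 and 123 to 128 CPM), with 2 higher and 2 lower at an unadjusted p under 0.05. Egfr was at -0.10 (SE 0.11) and Nes at 0.15 (SE 0.13), whereas Eomes at 1.92 (SE 0.62, adjusted p = 0.303) and Insm1 at 0.47 (SE 0.15) were the 2 higher genes and Hes5, at -0.47 (SE 0.15), was among the lower ones. Astrocyte, endothelial, pericyte, choroid plexus, ependymal, blood, striatal, olfactory bulb and hypothalamic markers passed in 0 genes of each list. No marker of any list was at 0 counts over all mice. The part of any of these cell types in the levels of the cell cycle genes was not tested.

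The 9 striatal markers all had positive log2 fold changes (median 1.45), and 0 passed, with 8 higher at an unadjusted p under 0.05, beside 5.38% of all genes. Their summed level was 342, 1685, 1076 and 684 CPM in control mice 1 to 4 and 2716, 839, 3292 and 2591 CPM in depleted mice 1 to 4. Depleted mouse 2 had the lowest striatal level of its group. With the striatal level as a covariate 37 of the 47 members had a positive log2 fold change and 0 passed, and the median was 0.31 for the mitotic and 0.21 for the S-phase members.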

How the data were processed

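Total RNA-seq counts per gene symbol were deposited by the authors as 1 table of raw counts for 8 forebrains, 4 per diet. Per the submitters' processing notes the tools were FastQC, MultiQC, STAR, DESeq2 and DESeq with build mm10; their versions, the annotation and the strand setting were not given in the sources used here. Columns of treated mice carry the inhibitor's name, which the series' design text ties to the depleted mice of the titles.

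Genes were filtered with filterByExpr, scaled by TMM and tested with edgeR 4.0.16 (R 4.3.3) by its quasi-likelihood test with diet as the only term, over 20140 genes with Benjamini-Hochberg adjustment at 0.05. The biological coefficient of variation was 16.1%. CPM used TMM-scaled library sizes, and mean log2 CPM a prior count of 2. Alternatives used DESeq2 1.42.0 and limma 3.58.1 (voom), other scalings and filters, a replicate block, 2 dissection terms and leaving out each mouse. The calculation was tested on simulated data. The labels name separate mice, and no replicate pair agreed within counting noise.

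The members and all gene lists were chosen with earlier results of these data known. Named in full are the 10 members with the smallest p, each role group's most abundant member per length and those past 0.05. Other lists give those past 0.05, at most 4, or else the 2 with the smallest p, and up to the first 3 markers of a cell type (1 marker is not reported here); further members are named to account for the list.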

Additional observations from a re-analysis of the deposited data

Results flagged for a closer look

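In 62 groups of 4 mice checked, 2 held a mouse far from the other 3, where chance flags about 1 in 20. Cdc20 in control mouse 3 stood at 0.790 CPM while the other 3 control mice lay between 1.13 and 1.19 CPM, and the gap was 0.847 of the group's range, past Dixon's critical value of 0.829. Cdca8 in depleted mouse 3 stood at 1.49 CPM while the other 3 depleted mice lay between 1.59 and 1.604 CPM, a gap of 0.848 of the range.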

How the results depend on the processing

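Top2a passed in 14 of 17 alternatives (log2 fold change 1.55 to 1.95), Ube2c in 10 of 16 (1.43 to 1.76), Bub1 in 8 of 16 (1.59 to 2.60) and Mki67 in 2 of 17. Members that passed numbered 3 in the reported fit, 1 with a filter of 1 CPM in 4 libraries (which left 34 members to test), 0 with the striatum covariate and 0 to 3 when each mouse was left out in turn. Genes that rose numbered 11 in the reported fit, 25 with no filter, 6 with the 1 CPM filter, 128 with DESeq2, 2 with the striatum covariate and 2 to 243 when each mouse was left out, the highest without depleted mouse 2. Genes that fell numbered 223, 351 with DESeq2 and 178 to 441 when each mouse was left out, so that 95.3% of calls were lower in the reported fit, 73.3% with DESeq2 and 64.5% without depleted mouse 2. DESeq2 called 3 further mitotic genes and 1 transcription factor, and leaving out each mouse called 0 to 1 further replication genes. The S-phase median was 0.21 with the striatum covariate. Plk1 ranged from -0.126 to 0.08633 when each mouse was left out; it changed sign to -0.14 with that covariate, -0.0012 without control mouse 3, -0.06 without control mouse 4 and -0.13 without depleted mouse 3, and Cdc20 to -0.014 with the covariate. The causes were not tested.

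The replicate numbers did not pair the mice: same-numbered mice correlated at -0.216, -0.172, 0.368 and -0.0114 in their deviations from the group means, and only number 3 correlated best with its own number. With the replicate block 4 genes rose and 1 member passed (Top2a, with 0.0473 as its adjusted p in edgeR).

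Members under 1 CPM rested on few reads, such as 15 counts of Bub1 over 4 control libraries.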

Other observations

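Clspn, which encodes a mediator of the replication checkpoint, was at 1.04, 2.92, 1.23 and 1.41 CPM in control mice 1 to 4 and at 6.87, 1.40, 6.36 and 5.16 CPM in depleted mice 1 to 4. Depleted mouse 2 lay within the control range and had the lowest summed striatal level of its group. Without that mouse the log2 fold change of Clspn was 1.91 (edgeR, adjusted p = 0.0158), beside 1.59 with all mice. Genes called higher over all genes tested then numbered 243, beside 11 with all mice, so this pass was not particular to Clspn. With the striatal level as a covariate the log2 fold change of Clspn was 0.35 (edgeR, adjusted p = 0.9998). That was the lowest of 17 alternatives, whose highest was 2.02 without control mouse 2. The striatal level differed between the diets, so that fit cannot fully separate it from diet. The part of the striatal level in the values of Clspn was not tested.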
